A study of Homo sapiens with 6 samples.

Results

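The SLC1 genes encode the glutamate and neutral amino acid transporters of the plasma membrane. The genes examined were 5 SLC1 transporters, SLC1A1, SLC1A2, SLC1A3, SLC1A4 and SLC1A5, and the enzymes GLUL and GLUD1, which is 7 of the 57905 genes in the deposited table. They were taken by gene symbol. SLC1A3 was chosen because its RNA was lower after INO80 knockdown in these same libraries, so its values are a description and carry no test. The others were chosen by name, as the relatives of SLC1A3 and the enzymes on either side of its substrate. All libraries came from HK-2, an immortalized line of human kidney proximal tubule cells. It was grown in DMEM with F12 and serum and transfected with siRNA through RNAiMAX. In 3 libraries the cells received a non-targeting control siRNA pool (labelled WT), and in 3 they received a pool of siRNAs against INO80 (labelled knockdown), with harvest after 48 h. INO80 is the ATPase of a chromatin remodelling complex, and the study asked which genes lie downstream of it. No label says that the replicates were separate cultures, so p-values measure the spread between these libraries, which may be technical.

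SLC1A1, SLC1A2 and SLC1A3, also known as EAAT3, EAAT2 and EAAT1, carry glutamate and aspartate into the cell with sodium. SLC1A4 and SLC1A5, also known as ASCT1 and ASCT2, exchange neutral amino acids such as alanine, serine, cysteine and, for SLC1A5, glutamine. Glutamine synthetase, the product of GLUL, makes glutamine from glutamate and ammonia. Glutamate dehydrogenase, the product of GLUD1, converts glutamate to 2-oxoglutarate in mitochondria. In the kidney the proximal tubule takes up glutamate through SLC1A1, and its breakdown of glutamine yields ammonia for acid excretion.

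The libraries held 16829273 to 23784599 counted reads, and INO80 itself was at 46.3, 49.3 and 54.0 CPM (counts scaled to a common library size by TMM) in control replicates 1 to 3 against 13.8, 12.05 and 14.2 CPM in INO80 siRNA replicates 1 to 3. Its mean was 0.267 times the control mean, with a log2 fold change of -1.90 (SE 0.0956, adjusted p = 0.000161, edgeR). The epithelial and tubular genes KRT8, KRT18, KRT19, CDH2, PAX8 and GGT1 were expressed. The other markers of proximal tubule and renal epithelium examined, LRP2, CUBN, AQP1, ANPEP, SLC34A1, SLC5A2 and PAX2, were under 1 FPKM (the count per exonic length and library total) in every library. Markers of astrocytes, endothelium and leukocytes were all under 1 FPKM too. Of the fibroblast markers, PDGFRA and PDGFRB were under 1 FPKM, while LUM was at 42.5 to 106 FPKM and DCN at 0.80 to 5.73 FPKM.

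Stretches of promoter are shown for the 3 transporter genes that hold the letters TGATGCAA. This is a form of the core of the composite element that ATF4 and C/EBP factors are known to bind at amino acid response genes. The sequences are from RefSeq on GRCh38.p14, and 6 of the 7 genes had windows there, from 250 bases before to 50 bases after an annotated start. The match is in capitals. The SLC1A3 stretch is chr5:36596338-36596587 (plus strand), the SLC1A4 stretch is chr2:64989356-64989399 (plus strand) and the SLC1A5 stretch is chr19:46784868-46784947 (minus strand), each written 5′ to 3′ on the strand of its gene.
SLC1A3: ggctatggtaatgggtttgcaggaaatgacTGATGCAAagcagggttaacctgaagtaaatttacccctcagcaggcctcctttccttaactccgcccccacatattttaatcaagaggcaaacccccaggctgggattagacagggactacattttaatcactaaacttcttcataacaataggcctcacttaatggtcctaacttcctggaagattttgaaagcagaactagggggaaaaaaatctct
SLC1A4: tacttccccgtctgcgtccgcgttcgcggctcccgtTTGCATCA
SLC1A5: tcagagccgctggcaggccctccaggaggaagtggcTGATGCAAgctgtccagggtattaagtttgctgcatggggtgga
The match began 220 bases before the annotated start of its window in SLC1A3 and 97 bases before it in SLC1A5. In SLC1A4 it began 7 bases before the start of its window and reads on the opposite strand as TTGCATCA. These starts need not be those of the genes as counted, and their use in HK-2 was not tested. Each match lay in 1 of the gene's alternative windows, of which SLC1A3 and SLC1A5 had 3 and SLC1A4 had 2, and GLUL, with 2 windows, and SLC1A1 and GLUD1, with 1 each, held none. Searched on both strands, the letters stood in 304 of 35116 windows of the same length (0.866%) and in 295 of 27305 genes (1.08%). A looser form, TGATGNAA, where N is any base, stood in 1217 of the 27305 genes (4.46%) and in the same 3 transporter genes. The motif was chosen after these sequences were seen, and a match is a description of letters, not of binding.

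SLC1A3 (ENSG00000079215, chromosome 5 from 36606457 to 36688436 in GRCh37 coordinates, plus strand) had few reads. It was counted 63, 91 and 108 times in control replicates 1 to 3 and 43, 60 and 47 times in INO80 siRNA replicates 1 to 3. The exact 95% Poisson interval of the lowest control count ran from 48.4 to 80.6 and that of the highest INO80 siRNA count from 45.8 to 77.2, and such intervals cover counting error only. On the raw counts the groups therefore came close, although the INO80 siRNA libraries were deeper.
After scaling, SLC1A3 was at 3.84, 4.45 and 5.59 CPM under control siRNA and at 2.14, 2.48 and 1.94 CPM under INO80 siRNA. Every INO80 siRNA library was below every control library. Such a separation in either direction was present for 22.8% of all tested genes, and nothing is read from it here because the gene was chosen on this contrast. The mean was 4.63 ± 0.885 CPM in control and 2.19 ± 0.275 CPM in INO80 siRNA libraries (SD, n = 3 each), and the fitted log2 fold change was -1.08 (SE 0.207, edgeR). The ratio within replicate numbers was 0.557 in replicate 1, 0.558 in replicate 2 and 0.347 in replicate 3, so the level was lower in each, by most in replicate 3.
Per exonic length, SLC1A3 was at 0.60, 0.72 and 0.90 FPKM under control siRNA and 0.33, 0.40 and 0.32 FPKM under INO80 siRNA. These are low levels, since only 16.7% of the tested genes had a lower mean FPKM in control cells. In bulk RNA, fewer cells that express a gene and less RNA per cell cannot be told apart. SLC1A3 is a classical astrocyte gene, and the summed FPKM of 5 astrocyte markers was 0.06 to 0.09 in control libraries and 0.04 to 0.05 in INO80 siRNA libraries. Of these markers ALDH1L1 and S100B had 0 counts in every library. Over all 6 libraries together GFAP had 36 counts, AQP4 had 5 and FABP7 had 1, so the summed values rest on few reads. The part of GFAP, AQP4 and FABP7 in the SLC1A3 values was not tested. The antisense gene CTD-2353F22.1, which overlaps SLC1A3, had at most 3 counts in any library.

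**Figure D1:**
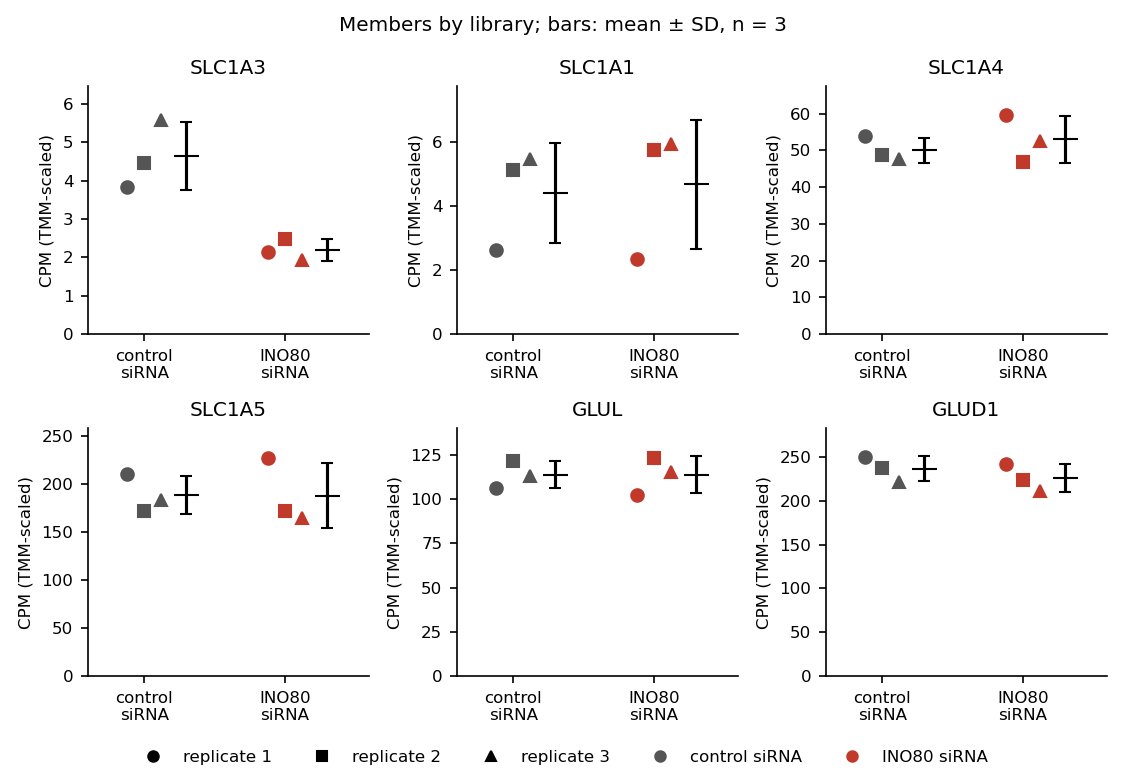
Level of the 6 detected genes in each library, in TMM-scaled CPM on linear axes that start at 0, with control siRNA in grey and INO80 siRNA in red, replicates by symbol, and the mean ± SD (n = 3) beside the points. The groups are apart for SLC1A3, at 3.84 to 5.59 against 1.94 to 2.48 CPM, and overlap for the 5 other genes.

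SLC1A1 (ENSG00000106688, chromosome 9, 4490444 to 4587469), the glutamate carrier known from the tubule, was at 2.62, 5.14 and 5.48 CPM under control siRNA and at 2.34, 5.76 and 5.94 CPM under INO80 siRNA. Replicate 1 was the low library in both groups, and the groups overlapped. The log2 fold change was 0.08 (SE 0.376, adjusted p = 0.943, edgeR), with a wide 95% interval from -0.77 to 0.94. A block for the replicate number narrowed the interval to -0.23 to 0.39. SPATA6L, on the opposite strand, overlaps it and had 20 to 30 counts per library.
SLC1A2 (ENSG00000110436, chromosome 11, 35272753 to 35441610), the main glial glutamate carrier of the brain, had 0 counts in all 6 libraries. A count of 0 allows up to 3 counts (a one-sided 95% limit), which for this gene corresponds to 0.0102 to 0.0145 FPKM depending on the library. The rest of the family behaved alike: SLC1A6 had 0 counts in every library and SLC1A7 had 2 counts, both in control replicate 3. SLC1A1 and SLC1A3 were thus the only high-affinity glutamate carriers of this family detected above 3 counts in any of these libraries.

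The neutral carriers were far more abundant. SLC1A4 (ENSG00000115902, chromosome 2, 65215611 to 65250999) was at 53.9, 48.6 and 47.6 CPM under control siRNA and 59.6, 46.8 and 52.5 CPM under INO80 siRNA. Its log2 fold change was 0.08 (SE 0.0973, 95% interval -0.14 to 0.30, adjusted p = 0.737, edgeR), and the INO80 siRNA libraries spanned the control libraries.
SLC1A5 (ENSG00000105281, chromosome 19, 47278140 to 47291851), the glutamine exchanger, was at 210.7, 172.0 and 183.0 CPM under control siRNA and 227.0, 172.1 and 164.3 CPM under INO80 siRNA. Replicate 1 was the high library in both groups. The log2 fold change was -0.01 (SE 0.128, 95% interval -0.30 to 0.29, adjusted p = 0.991, edgeR). The INO80 siRNA libraries again spanned the control libraries.

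GLUL (ENSG00000135821, chromosome 1, 182350839 to 182361341) was at 106.5, 121.9 and 113.2 CPM under control siRNA and 102.4, 123.1 and 115.6 CPM under INO80 siRNA. Both groups had the same order of replicates, and the log2 fold change was -0.00 (SE 0.0827, 95% interval -0.19 to 0.19, adjusted p = 0.995, edgeR).
GLUD1 (ENSG00000148672, chromosome 10, 88810243 to 88854623) was at 250.2, 237.7 and 222.1 CPM under control siRNA and 242.3, 224.1 and 210.8 CPM under INO80 siRNA. It was slightly lower in each replicate number, by ratios of 0.968, 0.942 and 0.949, but the groups overlapped. The log2 fold change was -0.07 (SE 0.0718, 95% interval -0.23 to 0.10, adjusted p = 0.699, edgeR; adjusted p = 0.156 with the block). The count of GLUD1 is uncertain. FAM35A overlaps it on the opposite strand with 1500 to 1871 counts per library. The library kit keeps the strand, but the strand setting of the counting is not given in the sources used here, so reads in the overlap could have gone to either gene. The retrocopy GLUD2 shares 771 stretches of 50 bases with its GENCODE transcripts, 17.3% of those of GLUD1 and 31.7% of those of GLUD2. No pair among the 7 SLC1 genes shared a stretch of that length.
None of the 5 tested genes other than SLC1A3 passed an adjusted p of 0.05 in edgeR, against 268 of 15343 tested genes (1.75%). At an unadjusted p under 0.05 the count was also 0, where 16.4% of all tested genes passed. At an adjusted p it was 0 with DESeq2, where 4.93% of all genes passed. It was 0 with limma, where 0.417% and 0.305% passed with pseudocounts of 0.1 and 1. With the replicate block it was 0 too, where 24.8% of all tested genes passed. With only 5 genes, a count of 0 lies near most of these shares. The 95% intervals leave room for modest changes on the log2 scale. They run from -0.14 to 0.30 for SLC1A4, -0.30 to 0.29 for SLC1A5, -0.19 to 0.19 for GLUL and -0.23 to 0.10 for GLUD1. In SLC1A1 they leave room for larger changes.

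The order of levels in control cells was set per length, in FPKM. GLUD1 at 58.5 ± 2.64 FPKM and SLC1A5 at 56.3 ± 4.92 FPKM (SD, n = 3 each) stood together at the top with overlapping ranges, above 95.4% and 95.2% of the tested genes. GLUL at 12.6 ± 1.04 and SLC1A4 at 7.17 ± 0.352 FPKM followed, each apart from its neighbours. SLC1A1 at 1.10 ± 0.404 and SLC1A3 at 0.740 ± 0.151 FPKM came last among the detected genes, and their ranges overlapped.
Within the SLC1 family the summed FPKM was 65.3 ± 4.77 in control libraries and 65.5 ± 8.69 in INO80 siRNA libraries (SD, n = 3 each). SLC1A3 made up 1.14% of that sum under control siRNA and 0.542% under INO80 siRNA. These values hold SLC1A3 and are given as a description.
With SLC1A3 left out, the sum was 64.5 ± 4.85 and 65.1 ± 8.70 FPKM. SLC1A5 gave 87.1% of it under control siRNA and 86.3% under INO80 siRNA, SLC1A4 gave 11.1% and 11.8%, and SLC1A1 gave 1.74% and 1.90%. With SLC1A5 also left out, the sum was 8.28 ± 0.0666 and 8.82 ± 0.455 FPKM. For these 5 quantities the exact two-sided permutation p ran from 0.2 to 0.9, where 0.1 is the smallest that 3 libraries against 3 allow, and from 0.75 to 0.9 after adjustment over the 5.

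**Figure D2:**
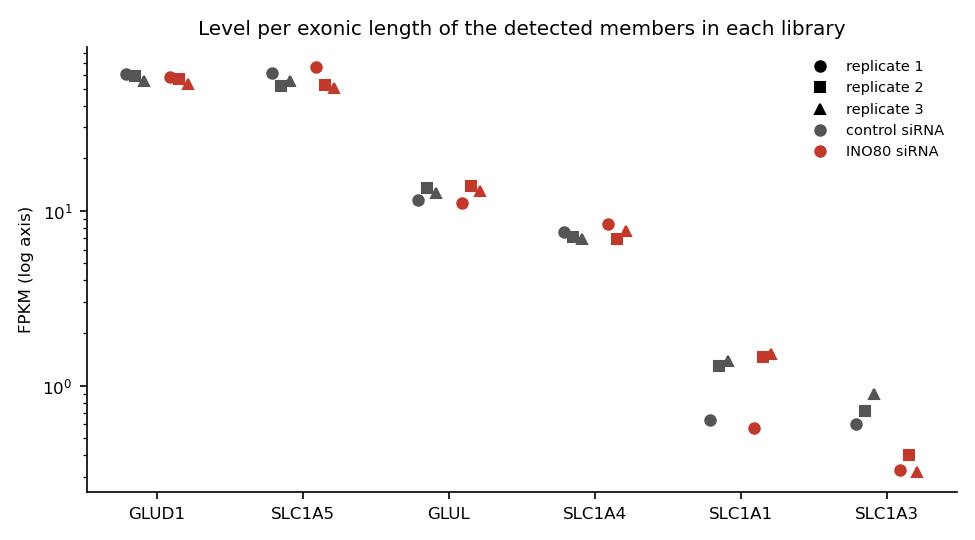
FPKM of the 6 detected genes in each library on a log axis, ordered by the control mean, with control siRNA in grey and INO80 siRNA in red and replicates by symbol. GLUD1 and SLC1A5 lie between 50.2 and 66.2 FPKM, and SLC1A1 and SLC1A3 lie at or under 1.51 FPKM.

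The replicates differed among themselves in a way that crossed the treatment. SLC1A1 in replicate 1 was lower than the mean of replicates 2 and 3 by 0.99 log2 CPM under control siRNA and by 1.29 under INO80 siRNA. The mean of these differences was lower in 1.26% of the tested genes, and 154 of 15343 (1.00%) were lower in replicate 1 by at least 1 log2 unit in both groups, a limit that SLC1A1 just missed under control siRNA. SLC1A5 was higher in replicate 1, by 0.25 and 0.43 log2 CPM, and SLC1A4 by 0.16 and 0.27. GLUL was lower there, by 0.14 and 0.22 log2 CPM, while SLC1A3 differed by -0.37 under control siRNA and by -0.04 under INO80 siRNA.
The coefficient of variation within each group gives the spread alone, not which replicate differs. It was 35.4% and 43.4% for SLC1A1 under control and INO80 siRNA, against 5.96% and 7.02% for GLUD1, and the median over all tested genes was 9.37% and 9.33%. Of the 4 fibroblast markers, LUM and DCN were higher in replicate 1. LUM was at 106 and 89.3 FPKM in replicate 1 of the control and INO80 siRNA groups, and at 42.5 to 59.0 FPKM in the other libraries. DCN was at 4.95 and 5.73 FPKM in replicate 1 and at 0.80 to 1.17 FPKM elsewhere, while PDGFRB was lower in replicate 1, at 0.06 and 0.04 FPKM against 0.11 to 0.14 FPKM, and PDGFRA was at or under 0.01 FPKM in every library. The part of these differences in the SLC1A1 values was not tested.

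**Figure D3:**
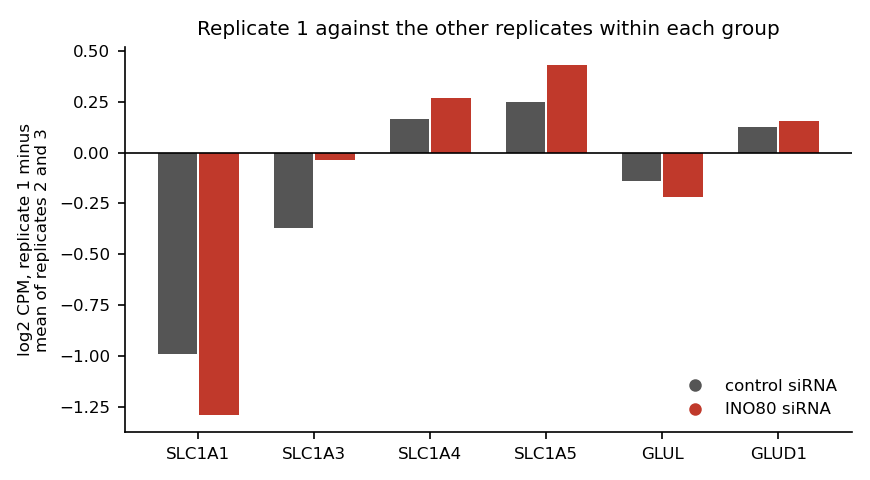
Difference in log2 CPM between replicate 1 and the mean of replicates 2 and 3 within control siRNA (grey) and INO80 siRNA (red), 1 value per bar and so without error bars. SLC1A1 is lower in replicate 1 by 0.99 and 1.29, and SLC1A5 is higher by 0.25 and 0.43.

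Around the transporters stand the other genes of glutamate and glutamine handling, taken as 5 lists with 93 genes in the table that are reported here. Of these, 65 were tested, and 0 were lower and 0 higher at an adjusted p under 0.05 (edgeR), against backgrounds of 1.49% lower and 0.261% higher over all tested genes. At an unadjusted p under 0.05 the count was 6, where 16.4% of all tested genes passed. At an adjusted p under 0.05 it was 0 with DESeq2, where 4.93% of all genes passed, and 0 with limma, where 0.417% and 0.305% passed with pseudocounts of 0.1 and 1. The median log2 fold change over the lists was 0.04, beside 0.01 over all tested genes. Under the replicate block 7 were lower and 12 were higher, against backgrounds of 13.4% and 11.4%. The genes named below from that fit were chosen after their values were seen. None of the 19 passed in the fit without the block. There, leaving out 1 library moved the log2 fold change of 14 of them by over 1.5 times. Such a fit also unbalances the replicate numbers between the groups. The fit with the block was not rerun with a library left out, so how its calls depend on 1 library was not tested.

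**Figure D4:**
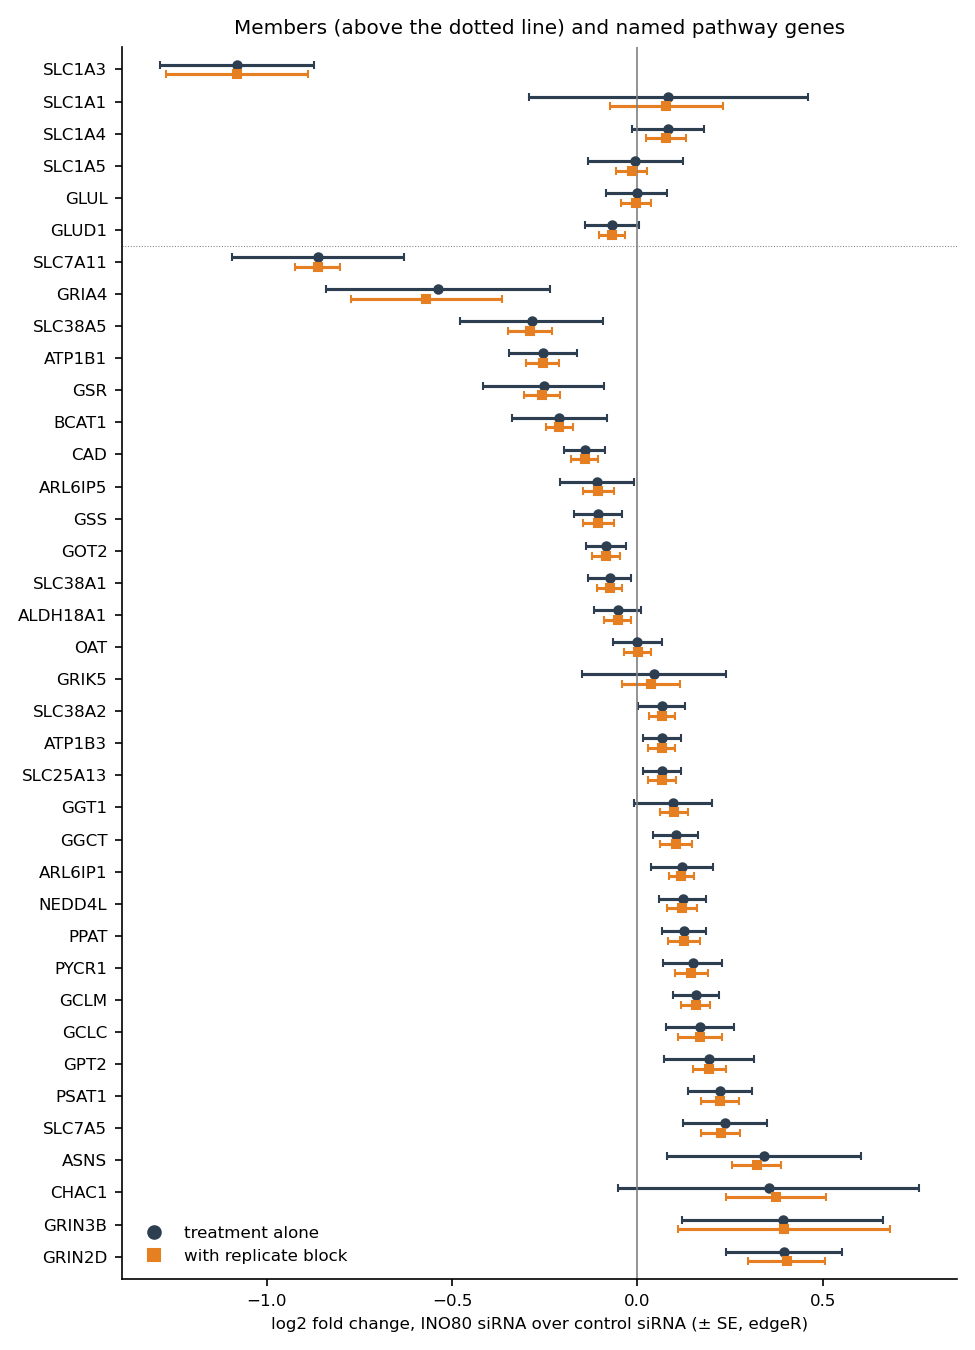
Log2 fold change of INO80 siRNA over control siRNA with its SE (edgeR) for the 6 detected genes, above the dotted line, and for the named genes of the lists, with treatment alone as circles and with the replicate block as squares. SLC1A3 lies at -1.08, the 5 other genes lie between -0.07 and 0.08, and SLC7A11 lies at -0.86 among the genes of the lists.

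Of the 25 tested enzymes of glutamine and glutamate reported here none passed (median log2 fold change 0.01). Abundant ones were GOT2, the mitochondrial aspartate aminotransferase, with a log2 fold change of -0.08 (adjusted p = 0.488, edgeR), ALDH18A1, which starts proline synthesis from glutamate, with -0.05 (adjusted p = 0.740, edgeR), and the ornithine aminotransferase gene OAT with -0.00 (adjusted p = 0.9996, edgeR). With the block, BCAT1 (-0.21) and CAD (-0.14) were lower and ASNS (0.32), PSAT1 (0.22), GPT2 (0.19), PYCR1 (0.15) and PPAT (0.13) were higher. Asparagine synthetase, the product of ASNS, and PPAT use glutamine as the nitrogen donor, and PSAT1, GPT2 and BCAT1 are aminotransferases that use or make glutamate. ASNS was at 40.4, 24.4 and 28.2 CPM under control siRNA and 56.1, 30.4 and 31.3 CPM under INO80 siRNA, so that replicate 1 was the high library in both groups.

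Of the 15 tested carriers outside the SLC1 family none passed (median log2 fold change -0.00). The largest difference was that of SLC7A11 (ENSG00000151012, chromosome 4, 139085251 to 139163503), the carrier that exports glutamate in exchange for cystine. It was at 81.1, 57.2 and 49.1 CPM under control siRNA and 43.2, 35.9 and 23.98 CPM under INO80 siRNA. The groups did not overlap, which held for 3 of the 15 tested carriers and for 22.8% of all tested genes in either direction. In both groups replicate 1 was the highest library and replicate 3 the lowest. The log2 fold change was -0.86 (SE 0.233, adjusted p = 0.114, edgeR), and the adjusted p was 5.86e-11 with the block.
SLC38A5 (-0.29), a glutamine carrier of system N, was also lower with the block and SLC7A5 (0.22), the large neutral amino acid exchanger, was higher. Its partner SLC3A2 had a log2 fold change of 0.05 (adjusted p = 0.796, edgeR). The most abundant carriers were SLC25A13, the mitochondrial aspartate/glutamate carrier, and the sodium-coupled glutamine carriers SLC38A1 and SLC38A2. Their log2 fold changes were 0.07, -0.08 and 0.07, with adjusted p from 0.580 to 0.670 (edgeR).

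Of the 9 tested genes of glutathione synthesis and breakdown, which uses glutamate as a building block, none passed (median log2 fold change 0.11). With the block, GSR (-0.26), glutathione reductase, was lower. GCLC (0.17) and GCLM (0.16), the subunits of glutamate-cysteine ligase, and CHAC1 (0.37), which degrades glutathione, were higher. GSS, GGT1 and GGCT, the most abundant of the list, had log2 fold changes of -0.11, 0.10 and 0.10.
Of the 9 tested genes for proteins that bind SLC1 transporters or maintain the sodium gradient reported here, none passed (median log2 fold change 0.03). ATP1B1 (-0.25), a subunit of the sodium pump, was lower with the block, and ARL6IP1 (0.12) and the ubiquitin ligase gene NEDD4L (0.12) were higher. ATP1B3, another pump subunit, and ARL6IP5, whose product binds SLC1A1, had log2 fold changes of 0.07 and -0.11.
The glutamate receptors were mostly low: 7 of 24 genes had enough counts to be tested and none passed (median log2 fold change 0.04). GRIK5, GRIN2D and GRIN3B had the highest mean FPKM among them, with GRIK5 at 3.52 and 3.65 FPKM. With the block, GRIN2D (0.40) was higher and GRIA4 (-0.57) was lower.

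The motif shown above for SLC1A3, SLC1A4 and SLC1A5 was also present in windows of GOT1, BCAT1, CHAC1, AJUBA and GRM7. That is 5 of the 71 list genes with windows, beside 1.08% of all genes. The number of windows per gene was not taken into account, and was 5 for BCAT1, 2 for AJUBA and 1 each for GOT1, CHAC1 and GRM7. Of these, BCAT1 was lower and CHAC1 higher with the replicate block. The log2 fold changes of GOT1 and AJUBA were 0.06 and 0.02, and GRM7 had 0 counts in every library. The looser form TGATGNAA stood in 10 of the 71, beside 4.46% of all genes. It added SLC3A2, SLC38A1, SLC17A7, ASNS and NEDD4L, and nothing is read from these counts.

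The genes most like SLC1A3 were sought by Pearson's r on log2 CPM over the 6 libraries. These points share the treatment difference on which SLC1A3 was chosen. The 5 highest were SKIV2L2 (r = 0.998), NFATC2IP (r = 0.990), DOT1L (r = 0.989), PRR11 (r = 0.987) and VPS37B (r = 0.985), and 467 of 15342 genes (3.04%) had an r of at least 0.9. Pearson's r does not measure the size of a difference. The log2 fold changes of these 5, in that order, were -0.31, -0.23, -0.47, -0.37 and -0.16 (edgeR), against -1.08 for SLC1A3. DOT1L, the histone H3 lysine methyltransferase gene, was at 50.7, 53.4 and 56.5 CPM under control siRNA and 39.1, 39.5 and 37.5 CPM under INO80 siRNA. SKIV2L2, an RNA helicase gene of the nuclear exosome, was at 72.4, 74.6 and 79.2 CPM and at 60.6, 63.6 and 58.4 CPM. In each, control replicate 3 was the highest library and INO80 siRNA replicate 3 the lowest, as in SLC1A3. Both genes were picked for their likeness over these same libraries, so nothing is read from the shared order. The other transporters and enzymes were not like SLC1A3 over these libraries, with r of 0.12 for SLC1A1, -0.50 for SLC1A4, -0.04 for SLC1A5, 0.14 for GLUL and 0.26 for GLUD1.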

How the data were processed

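RNA from HK-2 cells (3 control siRNA and 3 INO80 siRNA libraries) was poly(A)-selected and sequenced with a strand-specific kit. The authors deposited raw read counts per gene, and FPKM values, the count divided by exonic length and the library's total. Per the labels, the submitters' processing notes list HISAT2 2.0.1, HTSeq and hg19, while the study's methods name ELAND and hg38; the coordinates in the table are those of GRCh37. Totals ran from 16829273 to 23784599 counts per library. Counts were tested with edgeR 4.0.16 (R 4.3.3): filterByExpr, TMM, the quasi-likelihood test on treatment, and Benjamini-Hochberg adjustment over 15343 genes. CPM are TMM-scaled. Alternatives were other filters and scalings, DESeq2 1.42.0, limma 3.58.1 on log2(FPKM + 0.1) or log2(FPKM + 1) over genes whose mean FPKM reached 0.1, the replicate block, and each library left out. The SLC1 sum without SLC1A3 was added after seeing the data. The edgeR, DESeq2 and limma steps were tested on simulated data. Changes were simulated only in genes with higher mean counts than SLC1A1 and SLC1A3, so this does not show how well changes at their level are found.

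Deviations from the group means correlated across genes at 0.581, 0.365 and 0.360 for libraries with the same replicate number and at most 0.152 for others. Between replicates 2 and 3 the values were 0.152 and 0.129, and between replicate 1 and the others they ran from -0.397 to -0.361. The deviations are taken from the means of the same libraries, so these values depend on one another. The numbers come from the labels and were taken to pair the libraries; the study's methods name no pairing, so the block is an alternative.

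Genes named were the members, INO80, SLC1A6 and SLC1A7, list genes past the threshold, the 3 of highest mean FPKM per list among those reported, and the 5 genes most correlated with SLC1A3. SLC3A2, GOT1 and AJUBA, and list genes past the threshold only with the block, were chosen after their values were seen. The members and lists were chosen with earlier results of these data known. Results for some genes are not reported here, and the list counts leave them out. Promoter windows came from RefSeq on GRCh38.p14 and transcripts from GENCODE 44; neither was mixed with the coordinates of the table.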

Additional observations from a re-analysis of the deposited data

How the results depend on the processing

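The 3 libraries per group limit precision, most of all for SLC1A1 and SLC1A3 with 43 to 144 counts per library. Across 14 alternative fits none of SLC1A1, SLC1A4, SLC1A5, GLUL and GLUD1 passed, with the smallest adjusted p at 0.156 (GLUD1, edgeR with the replicate block). SLC1A3 stayed between -1.19 and -0.89 in 12 fits. It was -0.36 with limma on log2(FPKM + 1), whose pseudocount exceeds its level, and was not tested among genes of at least 1 FPKM.

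Genes past the threshold numbered 268 (85.1% lower), 708 without a filter on low counts (72.9% lower), 618 in DESeq2, 82 and 60 in limma with pseudocounts of 0.1 and 1, 3798 with the replicate block (54.0% lower), 14 with a log2 fold change of at least 1, and 18 to 146 with 1 library left out, the lowest without control replicate 3. Among the list genes reported they numbered 0, 1 without the filter (SLC7A11), 19 with the block, and 0 in the other alternatives. The block changed no other call among the members, INO80 and the list genes.

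Log2 fold changes near 0 turned sign. Those of ASNS (0.34) and CHAC1 (0.35), in the fit without the block, were not near 0 and turned sign only when INO80 replicate 1 was left out. SLC1A5 was at 0.0051 without the filter and 0.0014 with library totals only. GLUL was at 0.00887 and 0.00883 with these, and at 0.0058 and 0.0057 in limma with pseudocounts of 0.1 and 1. OAT was at 0.0109, 0.00945, 0.01025 and 0.01004 in these 4 fits and at 0.000297 with the block. With 1 library left out, the log2 fold change ranged from -0.17 to 0.39 for SLC1A1, -0.164 to 0.0824 for SLC1A5, -0.0621 to 0.0672 for GLUL, -0.0101 to 0.165 for SLC1A4, -0.00591 to 0.171 for GGT1, -0.18 to 0.21 for GRIK5, -0.000594 (without INO80 replicate 1) to 0.574 (without control replicate 1) for ASNS, -0.0301 to 0.827 (the same libraries) for CHAC1, and from -0.0505 to 0.0331 for OAT. Of the 19 list genes called with the block, 14 moved by over 1.5 times when 1 library was left out of the fit without it. The fit with the block was not rerun this way, and the log2 fold changes that follow are without it. Without INO80 replicate 1, SLC38A5 was at -0.50, BCAT1 at -0.34, ATP1B1 at -0.16, GSR at -0.13, PYCR1 at 0.07, GPT2 at 0.08, NEDD4L at 0.08, SLC7A5 at 0.09 and ARL6IP1 at 0.20. Without control replicate 1, SLC38A5 was at -0.10, BCAT1 at -0.08, ARL6IP1 at 0.07, PPAT at 0.08 and GPT2 at 0.32. Without control replicate 2, GSR was at -0.11, GPT2 at 0.13, ASNS at 0.19 and GRIN2D at 0.23. Without control replicate 3, CHAC1 was at 0.04. Without INO80 replicate 2, GSR was at -0.45 and ARL6IP1 at 0.08. Without INO80 replicate 3, GRIA4 was at -0.23, SLC38A5 at -0.15 and CHAC1 at 0.58. The difference in summed SLC1 FPKM (INO80 minus control siRNA, 0.203) was -0.128 in TMM-scaled CPM per kilobase and 0.593 with SLC1A3 left out of the sum (chosen after seeing the data), and ranged from -4.80 to 3.07 with 1 library left out. Except where a construction is named (fewer libraries, a pseudocount), the cause was not tested.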
